A study of Mus musculus with 13 samples.

Results

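RNA polymerases I, II and III are the 3 nuclear enzymes that transcribe the mammalian genome, and the genes described here are those of their subunits. They were chosen by symbol alone, as every entry of the count table named Polr1, Polr2 or Polr3 followed by a subunit letter. This gave 28 of 32544 gene symbols, with 5 Polr1, 13 Polr2 and 10 Polr3 genes. The libraries were made from lungs of male WT C57BL/6J mice, obtained at 7 weeks of age, that breathed either 21% oxygen (normoxia, 7 libraries) or 80% oxygen (hyperoxia, 6 libraries) for 5 days. Lungs were perfused before freezing, RNA came from the whole tissue, and the assay was Quant-seq, which reads a single fragment near the 3′ end of each polyadenylated mRNA. The study followed rRNA production in hyperoxic lung, and the comparison here asks whether the mRNAs of the transcribing enzymes themselves differed between the oxygen levels.

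RNA polymerase I makes the large rRNA precursor in the nucleolus, RNA polymerase II makes mRNAs and most small nuclear RNAs, and RNA polymerase III makes tRNAs, 5S rRNA and other short RNAs. Each enzyme has its own largest subunit (Polr1a, Polr2a, Polr3a) and its own second-largest subunit (Polr1b, Polr2b, Polr3b), which together form the catalytic centre. The symbols do not follow the enzymes throughout, because Polr2e, Polr2f, Polr2h, Polr2k and Polr2l encode parts common to all 3 enzymes, and Polr1c and Polr1d encode the assembly platform shared by polymerases I and III. Polr2m encodes Gdown1, a protein that binds polymerase II rather than a core subunit.

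Total counts per library ran from 1607111 to 4540288, so 3 counts, taken as the detection floor, corresponded to between 0.656 and 1.84 CPM (counts scaled to a common library size, with the TMM factors of edgeR). These floors cover counting error only, whereas the 95% intervals of fold changes given below also cover the spread between libraries. Hyperoxia 1 stood apart from the other libraries. Its correlations with them across genes were 0.721 to 0.833, its mitochondrial share of counts was 0.944% against 1.94% to 3.24% elsewhere, and 14170 genes were detected in it against 15476 to 16595. Results are therefore given with and without it. The library names fall into 2 runs of letters, B to M (5 normoxic and 3 hyperoxic libraries) and O to S (2 normoxic and 3 hyperoxic), and the labels do not say what the letters mean. Lung epithelial markers were present in every library, with a summed level of 26060 to 75140 CPM in normoxia and 4266 to 16900 CPM in hyperoxia (from 6984 CPM without Hyperoxia 1), and 4 of 10 were called lower. Leukocyte markers summed to 2578 to 4123 CPM in normoxia and 529 to 1388 CPM in hyperoxia (from 671 CPM without Hyperoxia 1), with 4 of 7 tested called lower and 1 higher. Of 6 proliferation markers 1 (Ccna2) was called higher, with sums of 98.9 to 143 CPM in normoxia and 69.2 to 143 CPM in hyperoxia. It was also the 1 proliferation marker with a log2 fold change above 0, and the median of the 6 was -0.34. Further calls were 1 fibroblast gene higher, and 1 endothelial, 2 heart muscle and 1 erythroid gene lower. No marker in these lists was at 0 in all libraries. In whole tissue, fewer cells of a type cannot be told apart from less RNA per cell, and the part of these cell types in the results below was not tested.

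Subunit mRNAs that differed between the groups were all higher in hyperoxia. Of the 27 subunit genes that passed the filter on low counts, 7 were called higher and 0 lower at an adjusted p of 0.05 (edgeR quasi-likelihood test, adjusted over 12496 genes). This was 25.9% of those tested, against 11.8% of all genes called higher and 10.8% called lower. At an unadjusted p of 0.05 in edgeR, 10 were higher and 0 lower. For counts at an unadjusted p, here and below, the share over all genes was not computed. DESeq2, limma-voom and limma on the deposited log10 CPM called 8, 7 and 6 subunit genes higher and 0 lower. Of all 12496 genes they called 1763, 1374 and 1097 higher and 1544, 1496 and 1729 lower. DESeq2 added Polr3c to the genes named next, limma-voom had Polr3c in place of Polr3k, and limma on the log10 CPM left out Polr3k. The called genes were Polr1a and Polr1e (2 of 5 Polr1 genes), Polr2c and Polr2l (2 of 12 Polr2 genes) and Polr3d, Polr3e and Polr3k (3 of 10 Polr3 genes). The median log2 fold change was 0.45 over Polr1, 0.07 over Polr2 and 0.54 over Polr3 genes, beside -0.03 over all genes tested, and 21 of the 27 values were above 0. These medians differed between fits. With limma on the deposited log10 CPM, where the test, the scale of the values and the scaling all differ, the median of all genes was -0.16 and the subunit medians were 0.20, -0.20 and 0.39, so the sign of the Polr2 median turned. The share of higher calls among all called genes was 38.8% there and 52.3% in edgeR. With the scaling alone changed, to library size in edgeR, the median of all genes was -0.10 and that share 42.7%. Only Polr2d, a polymerase II subunit of the stalk that contacts the emerging RNA, was left out by the filter, with 2.08 to 8.18 CPM in normoxia and 1.04 to 4.69 CPM in hyperoxia.

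Without Hyperoxia 1, all 28 genes passed the filter, 9 were called higher and 0 lower (32.1%), against 15.2% of all genes called higher and 13.3% called lower. The calls of Polr1d, Polr2h and Polr3c were gained and that of Polr3k was lost. At an unadjusted p of 0.05 in this edgeR fit 12 were higher and 1, Polr3gl, lower. The medians were then 0.57 for Polr1, 0.28 for Polr2 and 0.53 for Polr3 genes. The plot of fold changes shows the values of both fits side by side.

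The medians also differed between the runs of library names. Within the B to M libraries, which hold Hyperoxia 1, they were 0.20 for Polr1, -0.20 for Polr2 and 0.70 for Polr3 genes, and within the O to S libraries they were 0.77, 0.65 and 0.25. The sign of the Polr2 median and the order of Polr2 and Polr3 therefore turned between these subsets, and the difference was not tested. The 7 called genes were called from these same libraries, so their signs within the subsets are not independent of the calls. All 7 were above 0 in both, with log2 fold changes of 0.62 to 1.55 within B to M and 0.16 to 1.24 within O to S. The calls of Polr1e, Polr2c, Polr2l and Polr3e were lost within B to M. Those of Polr1a, Polr1e, Polr3e and Polr3k were lost within O to S, and Polr3d was called in both.

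**Figure D1:**
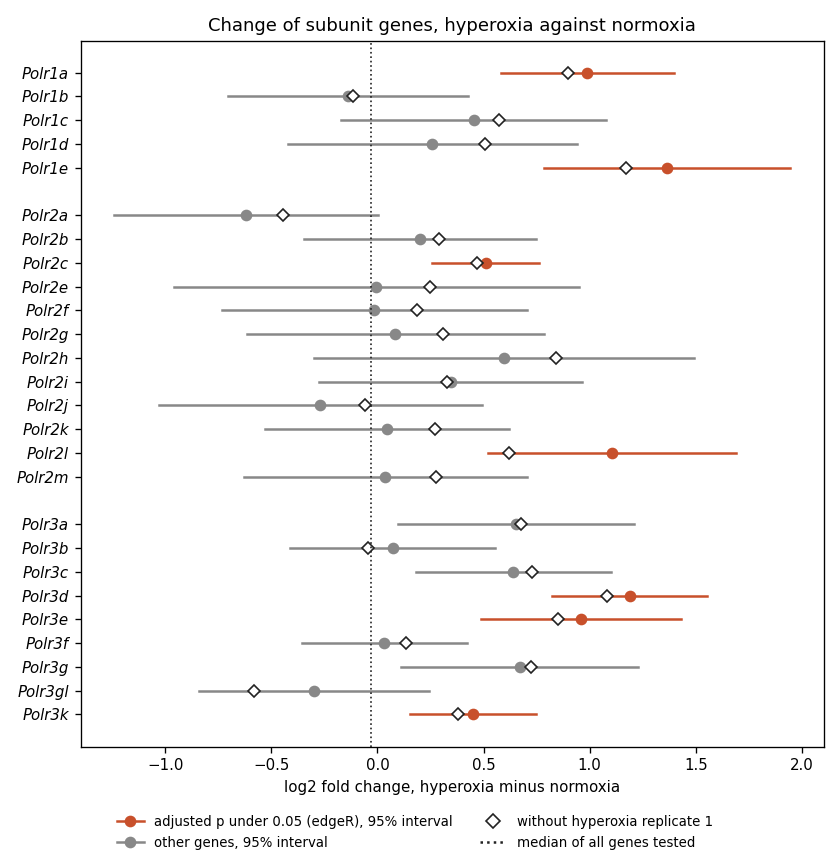
Log2 fold change (hyperoxia minus normoxia, horizontal axis) of 26 of the 27 subunit genes tested, with 95% intervals, from 7 normoxic and 6 hyperoxic libraries. Orange circles are the 7 genes called at an adjusted p of 0.05 and grey circles the others, open diamonds give the value without Hyperoxia 1, and the dotted line is the median of all genes (-0.03). All 7 called genes lie to the right of that line, from 0.45 for Polr3k to 1.36 for Polr1e.

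The Polr1, Polr2 and Polr3 genes were also grouped by the enzyme the proteins belong to. Of the 3 specific to polymerase I, 2 were called higher, and of the 6 tested that are specific to polymerase II, 1. Of the 5 common to all 3 enzymes 1 was called higher, and of the 10 specific to polymerase III, 3. The median log2 fold changes were 0.99, 0.14, 0.05 and 0.54 in that order. Among all genes 11.8% were called higher, and 15.2% without Hyperoxia 1. Polymerase I and III subunits under other symbols (Twistnb, Cd3eap, Znrd1 and Crcp, given below) are not in these groups. Of those 4, 1 was called higher, and their median was 0.55. With all libraries, neither subunit shared by polymerases I and III (median 0.36) was called by edgeR, DESeq2 or limma, or at an unadjusted p of 0.05 in edgeR. Without Hyperoxia 1, 1 of these 2 was called (Polr1d, median 0.54), the median of the polymerase II subunits was 0.29, and 2 of the 5 common subunits were called, with a median of 0.27. The common subunits had a median of -0.20 within the B to M libraries and of 1.09 within the O to S libraries. These counts are small, and the groups were not tested against each other.

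Of the 5 Polr1 genes, 2 were called higher and 3 did not pass the test. Polr1a, the largest subunit, stood at 21.4, 25.8 and 37.2 CPM (lowest, median and highest) in normoxia and at 30.9, 55.1 and 74.0 CPM in hyperoxia. All hyperoxic libraries except Hyperoxia 3 lay above the highest normoxic library. The log2 fold change was 0.99 ± 0.21 (SE) with an edgeR adjusted p of 0.00281, and it was 0.90 without Hyperoxia 1 (adjusted p = 0.00234). Polr1e encodes the PAF53 subunit, which forms a dimer with the protein of Cd3eap and takes part in initiation. It ran from 3.07 through a median of 4.25 to 7.40 CPM in normoxia and from 7.82 through 11.2 to 20.4 CPM in hyperoxia. The normoxic values are near the floor, with 7 to 22 counts per library, which limits the precision of the change. The groups did not overlap, a pattern found in 5.6% of all genes tested in this direction. Its log2 fold change of 1.36 ± 0.30 was the highest of the subunit genes (edgeR adjusted p = 0.00354), and it was 1.17 without Hyperoxia 1 (adjusted p = 0.00379).

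Polr1b, the second-largest subunit, did not pass the test, with 6.39 to 16.9 CPM in normoxia, 4.17 to 13.1 CPM in hyperoxia and a log2 fold change of -0.14 (95% interval -0.70 to 0.43). For the platform subunits shared with polymerase III, the values were more scattered. Polr1c ranged from 17.6 to 39.9 CPM in normoxia and from 16.3 to 66.5 CPM in hyperoxia, where 3 libraries lay above all normoxic ones and 1 below. Polr1d had 97.0, 138 and 186 CPM in normoxia, and in hyperoxia Hyperoxia 1 had 20.9 CPM while the other libraries had 165 to 228 CPM. Its log2 fold change was 0.26 (edgeR adjusted p = 0.641) with Hyperoxia 1 and 0.51 ± 0.16 (adjusted p = 0.0221) without it.

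**Figure D2:**
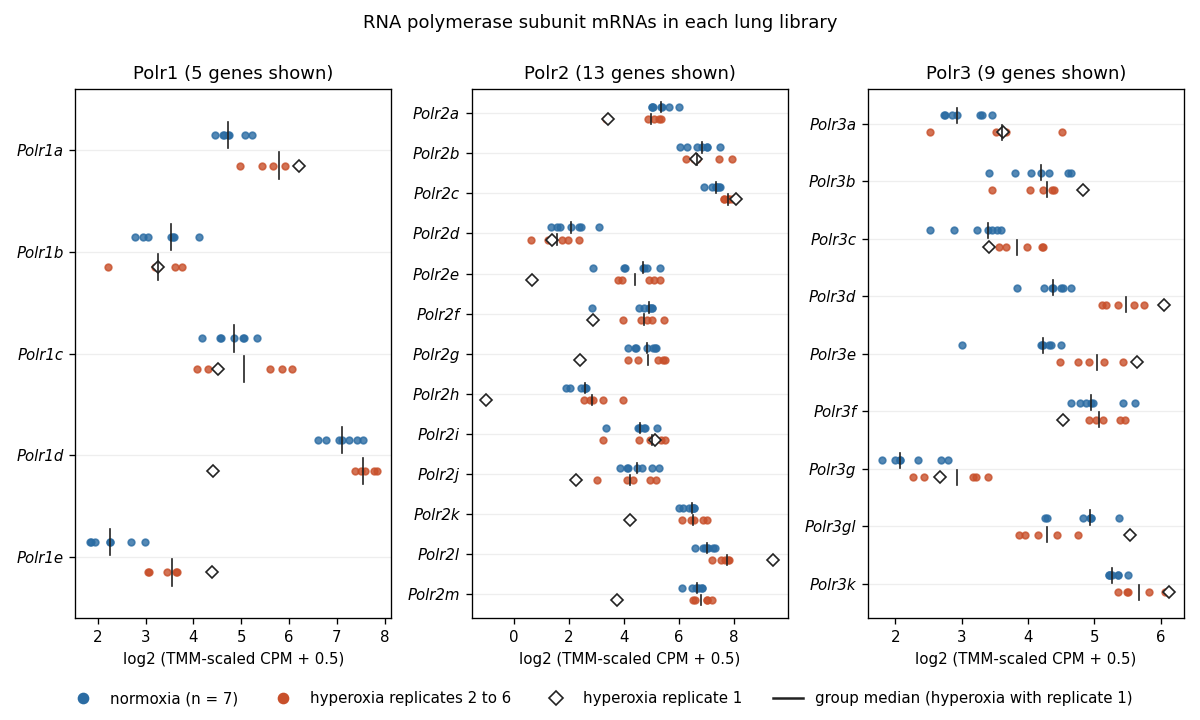
Level of 27 of the 28 subunit mRNAs in each library, as log2 of TMM-scaled CPM plus 0.5 (horizontal axis, its range differs between panels), for Polr1, Polr2 and Polr3 genes. Blue points are the 7 normoxic libraries, orange points Hyperoxia 2 to 6, open diamonds Hyperoxia 1 and short bars the group medians. Polr1e, Polr2c and Polr3d are the genes whose groups do not overlap, and Hyperoxia 1 lies far to the left for Polr1d, Polr2e, Polr2h and Polr2m.

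Promoter sequence around the RefSeq start site is shown for the Polr1 genes called higher. Each stretch runs from 100 bases before to 50 after the start (build GRCm38.p6, written in the direction of the gene). Capitals mark CCAAT boxes (CCAAT), GC boxes (GGGCGG) and ETS cores (CCGGAAG), each found on either strand. The Polr1a stretch lies on the plus strand at chr6:71908953-71909102 and the Polr1e stretch on the plus strand at chr4:45018509-45018658. The Polr1a stretch holds a CCAAT box at -31, and the Polr1e stretch holds GC boxes at -46 and +6 and an ETS core at +26, counting the start as +1.
Polr1a: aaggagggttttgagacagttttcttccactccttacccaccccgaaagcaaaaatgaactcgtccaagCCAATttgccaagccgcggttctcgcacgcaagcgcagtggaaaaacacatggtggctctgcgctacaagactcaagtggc
Polr1e: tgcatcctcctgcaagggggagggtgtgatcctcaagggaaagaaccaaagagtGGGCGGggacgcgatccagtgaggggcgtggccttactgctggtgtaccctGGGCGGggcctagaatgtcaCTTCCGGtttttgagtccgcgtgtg

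Over all libraries, polymerase II subunits were spread around 0, with Polr2c and Polr2l as the genes that rose. Within the B to M libraries 4 of the 13 Polr2 genes were above 0, and within the O to S libraries 11 of 13. Polr2c, whose protein pairs with that of Polr2j, had 119, 162 and 180 CPM in normoxia and 199, 223 and 271 CPM in hyperoxia. The groups did not overlap. The log2 fold change was 0.51 ± 0.13 (edgeR adjusted p = 0.00990) and was 0.47 without Hyperoxia 1 (adjusted p = 0.00749). Polr2l encodes the small subunit RPB10, common to all 3 enzymes. It stood at 95.9, 128 and 158 CPM in normoxia, at 688 CPM in Hyperoxia 1 and at 146 to 223 CPM in the other hyperoxic libraries, of which only Hyperoxia 3 lay within the normoxic range. The log2 fold change was therefore 1.11 ± 0.30 (edgeR adjusted p = 0.0140) with Hyperoxia 1 and 0.62 ± 0.14 (adjusted p = 0.00318) without it.

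The promoters of these genes are shown over the same stretch and with the same marks. The Polr2c stretch lies on the plus strand at chr8:94857350-94857499, with a CCAAT box at -73 and an ETS core at +18. The Polr2l stretch lies on the minus strand at chr7:141475104-141475253, with GC boxes at -86, -64 and -19.
Polr2c: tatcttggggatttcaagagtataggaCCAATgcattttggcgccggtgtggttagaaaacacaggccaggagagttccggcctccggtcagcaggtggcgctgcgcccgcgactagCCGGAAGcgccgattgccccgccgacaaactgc
Polr2l: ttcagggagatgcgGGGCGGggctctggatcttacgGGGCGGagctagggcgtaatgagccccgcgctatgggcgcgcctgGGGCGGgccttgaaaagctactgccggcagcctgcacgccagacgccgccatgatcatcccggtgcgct

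The catalytic subunits of polymerase II did not pass the test. Polr2a, the largest subunit with the C-terminal repeat domain, had 32.0, 40.4 and 64.6 CPM in normoxia and 9.73, 31.5 and 40.8 CPM in hyperoxia. Hyperoxia 1 and Hyperoxia 3 had 10.2 and 9.73 CPM, and the other 4 hyperoxic libraries had 29.1 to 40.8 CPM. The log2 fold change was -0.62 ± 0.32 (edgeR adjusted p = 0.181), whereas the B to M libraries alone gave -1.13 and the O to S libraries alone 0.04. Polr2b, the second-largest subunit, ranged from 66.1 to 179 CPM in normoxia and from 76.3 to 241 CPM in hyperoxia, where 1 library lay above the normoxic range. Among the smaller subunits specific to polymerase II, Polr2g, the partner of Polr2d in the stalk, Polr2i and Polr2j had log2 fold changes of 0.08, 0.34 and -0.27, with adjusted p of 0.478 to 0.896. Without Hyperoxia 1 the values were 0.31, 0.33 and -0.06, and none passed the test.

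The parts common to all 3 enzymes differed among themselves in Hyperoxia 1. Polr2e had 1.07 CPM there, from 2 counts, against 13.2 to 39.3 CPM in the other hyperoxic and 6.97 to 39.2 CPM in the normoxic libraries. Polr2h had 0 counts in Hyperoxia 1, where the floor is 1.61 CPM, against 5.31 to 15.1 CPM in the other hyperoxic and 3.27 to 5.72 CPM in the normoxic libraries. Polr2k had 18.2 CPM there, and 69.4 to 129 CPM in the other hyperoxic libraries, while Polr2l was highest there, as given above. Without that library Polr2h was called higher, by 0.84 ± 0.29 (edgeR adjusted p = 0.0380), whereas Polr2e, Polr2f and Polr2k had log2 fold changes of 0.25, 0.19 and 0.27 that did not pass the test. Polr2m had 12.9 CPM in Hyperoxia 1, 91.0 to 149 CPM in the other hyperoxic libraries and 69.3 to 116 CPM in normoxia, with a log2 fold change of 0.28 (adjusted p = 0.191) without Hyperoxia 1.

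Over all libraries, 9 of 10 Polr3 genes were above 0, beside 5970 of the 12496 genes tested. Both without Hyperoxia 1 and within the O to S libraries 8 of 10 were above 0, and within the B to M libraries all 10. Calls as higher were 3 of 10 with all libraries, beside 11.8% of all genes. Polr3d and Polr3e encode RPC4 and RPC5, which form a dimer with roles in initiation and termination. Polr3d lies on the minus strand at chr14:70438757-70443447 (GENCODE M21, GRCm38). It had 13.8, 20.3 and 24.6 CPM in normoxia and 34.0, 44.2 and 65.9 CPM in hyperoxia, with no overlap. Its log2 fold change of 1.19 ± 0.19 had the smallest adjusted p of the subunit genes (edgeR, 0.000315), and it was 1.08 without Hyperoxia 1 and 1.23 and 1.24 within the B to M and O to S libraries. Polr3e ran from 7.52 through 18.2 to 22.1 CPM in normoxia and from 21.9 through 32.3 to 49.3 CPM in hyperoxia, where Hyperoxia 2 alone fell within the normoxic range. The log2 fold change was 0.96 ± 0.24 (edgeR adjusted p = 0.00929), with 0.85 without Hyperoxia 1. Polr3k encodes RPC10, the small subunit that assists RNA cleavage. It had 36.6, 38.1 and 45.1 CPM in normoxia and 40.7, 50.6 and 69.7 CPM in hyperoxia, where 3 libraries overlapped the normoxic range. Its log2 fold change of 0.45 ± 0.15 was close to the threshold (edgeR adjusted p = 0.0438) and passed it in 4 of the 13 fits that left out 1 library. The call was lost without Normoxia 1, 3, 4, 5, 6 or 7, or without Hyperoxia 1, 2 or 3, with adjusted p up to 0.0777. Over all 24 alternatives it was called in 8, and it was lost among others in both limma fits, with scaling by library size alone, with no filter and with at least 10 counts in every library.

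The Polr3e promoter is shown in full, from 250 bases before to 50 after the start, because its upstream end overlaps a gene that polymerase III itself transcribes, a leucine tRNA gene named n-TLaag4 in RefSeq. The Polr3e stretch lies on the plus strand at chr7:120917528-120917827 and the tRNA gene at chr7:120917517-120917598. Besides the marks above, capitals show an E-box (CACGTG) at +6 and the start of the B box, the internal promoter element of tRNA genes (GGTTCGA), at -201, within the tRNA gene. That pattern was searched after the sequence had been seen, and 0.910% of the 32851 promoters in the table held it on either strand. Polr3k is shown from 100 bases before to 50 after the start, on the plus strand at chr2:181864260-181864409, with CCAAT boxes at -86, -53 and +43. A CCAAT box on the opposite strand reads ATTGG.
Polr3e: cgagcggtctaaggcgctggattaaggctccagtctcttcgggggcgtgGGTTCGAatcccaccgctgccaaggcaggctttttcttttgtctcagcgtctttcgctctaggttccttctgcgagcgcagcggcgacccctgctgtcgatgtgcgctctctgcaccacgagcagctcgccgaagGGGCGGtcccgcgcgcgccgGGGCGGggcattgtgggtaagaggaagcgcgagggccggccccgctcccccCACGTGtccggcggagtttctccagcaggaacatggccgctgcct
Polr3k: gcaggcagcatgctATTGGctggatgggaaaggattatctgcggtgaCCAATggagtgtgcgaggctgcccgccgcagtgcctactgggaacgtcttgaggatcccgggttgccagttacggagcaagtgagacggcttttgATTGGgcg

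Of the catalytic subunits of polymerase III, Polr3a had 6.13, 7.09 and 10.4 CPM in normoxia and 5.21, 11.7 and 22.3 CPM in hyperoxia. All hyperoxic libraries but Hyperoxia 3 lay above the normoxic range, and the log2 fold change of 0.65 ± 0.28 did not pass the test (edgeR adjusted p = 0.113). It was 0.17 within the B to M and 1.24 within the O to S libraries. Polr3b, the second-largest subunit, had 10.1 to 24.5 CPM in normoxia and 10.4 to 27.9 CPM in hyperoxia, with a log2 fold change of 0.07 (95% interval -0.41 to 0.55). Polr3c, Polr3f and either Polr3g or Polr3gl form the trimer that opens the promoter. Polr3c stood at 5.24 to 11.6 CPM in normoxia and 10.2 to 18.1 CPM in hyperoxia, with a log2 fold change of 0.64 (edgeR adjusted p = 0.0615) that was 0.73 and passed the test without Hyperoxia 1 (adjusted p = 0.0263). Polr3f had a log2 fold change of 0.03 with an edgeR adjusted p of 0.928.

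Polr3g and Polr3gl encode alternative versions of the same subunit, RPC7, with Polr3g best known from stem cells and proliferating cells. Polr3g had 2.99, 3.70 and 6.41 CPM in normoxia and 4.31, 7.21 and 10.1 CPM in hyperoxia, and Polr3gl had 18.7, 30.1 and 41.0 CPM in normoxia and 14.1, 19.2 and 46.1 CPM in hyperoxia. The highest Polr3gl value was that of Hyperoxia 1, and the other hyperoxic libraries had 14.1 to 26.5 CPM. Neither gene passed the test alone, with log2 fold changes of 0.67 (edgeR adjusted p = 0.105) and -0.30 (adjusted p = 0.484). Without Hyperoxia 1 they were 0.72 (edgeR adjusted p = 0.0794) and -0.58 (adjusted p = 0.0565). Polr3g had 0.97 and 0.21, and Polr3gl 0.16 and -0.89, within the B to M and O to S libraries.

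Ratios of 2 subunit counts within the same library do not depend on how libraries are scaled, and 7 of them were compared with exact two-sided permutation tests over all ways to divide 13 libraries into 7 and 6, adjusted over the 7 ratios. The ratio of Polr1a to Polr2a was higher in hyperoxia by 1.72 on the log2 scale, or 3.30-fold (exact p = 0.000583, the smallest the design allows, adjusted p = 0.00408). It ranged from -1.26 to 0.16 in the normoxic and from 0.30 to 2.74 in the hyperoxic libraries, which did not overlap. The difference was 2.39 within the B to M libraries, 0.65 within the O to S libraries and 1.40 without Hyperoxia 1. The ratio of Polr3a to Polr2a was higher by 1.30, with 5 of 6 hyperoxic libraries above all normoxic ones (exact permutation p = 0.00175, adjusted p = 0.00612), and the difference was 1.49 and 1.08 within the B to M and O to S libraries and 1.06 without Hyperoxia 1. Both ratios share Polr2a as the denominator and are not independent.

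The same comparison with the second-largest subunits gave no difference that passed the test. The ratios of Polr1b to Polr2b and of Polr3b to Polr2b differed by -0.29 and -0.08 (exact permutation, adjusted p = 0.668 and 0.867), and those of Polr1a to Polr3a and of Polr1b to Polr3b by 0.42 and -0.21 (exact permutation, adjusted p = 0.182 and 0.515). The ratio of Polr3g to Polr3gl was higher in hyperoxia by 0.93, or 1.90-fold (exact permutation p = 0.0157, adjusted p = 0.0367). Hyperoxia 1 was the hyperoxic library that lay within the normoxic range, and the difference was 1.17 without it (exact permutation, adjusted p = 0.00884). The call was lost in 8 of the 13 fits that left out 1 library, namely Normoxia 1, 2, 3, 4 or 7 or Hyperoxia 3, 5 or 6, with adjusted p up to 0.0859. Within the B to M and O to S libraries the difference was 0.77 and 1.04.

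**Figure D3:**
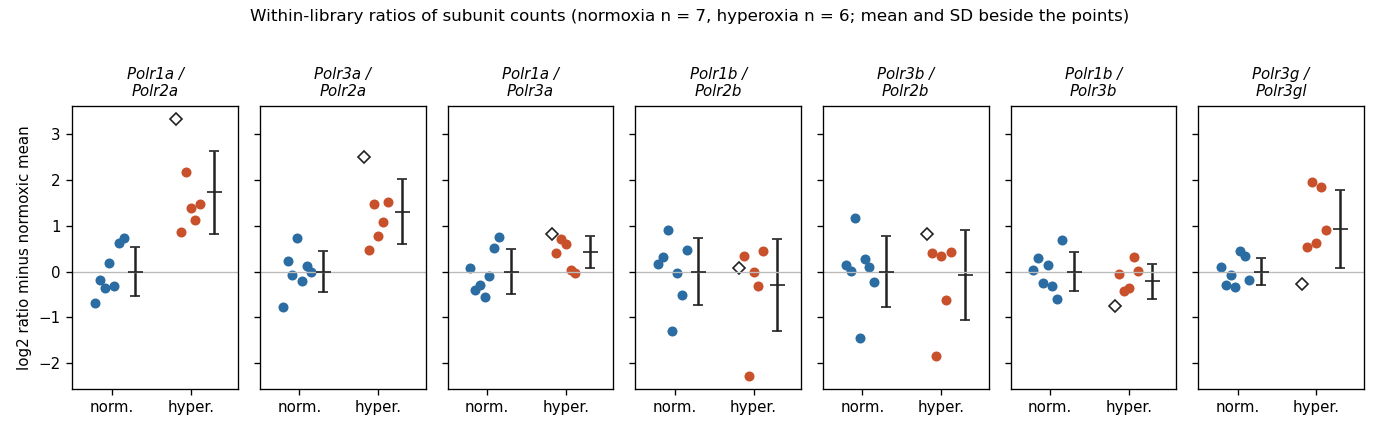
Log2 ratio of 2 subunit counts in each library, set to 0 at the normoxic mean (vertical axis), for the 7 ratios tested. Blue points are 7 normoxic libraries, orange points Hyperoxia 2 to 6, the open diamond Hyperoxia 1, and the bar beside each group its mean and SD. The hyperoxic mean lies 1.72 above the normoxic mean for Polr1a to Polr2a and 1.30 for Polr3a to Polr2a, and the ratios of second-largest subunits lie near 0.

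Subunits that the table lists under other names were also examined. Twistnb, a stalk subunit of polymerase I, was called higher by edgeR and DESeq2 but by neither limma fit. It had 98.4, 103 and 123.1 CPM in normoxia and 112, 128 and 206 CPM in hyperoxia. The log2 fold change was 0.50 ± 0.16 (edgeR adjusted p = 0.0386). Hyperoxia 1 and Hyperoxia 3 were highest, with 201 and 206 CPM, and without Hyperoxia 1 the change was 0.41 (adjusted p = 0.0518). Cd3eap encodes PAF49, the polymerase I partner of the Polr1e protein. It had 44.1 to 96.5 CPM in normoxia, 198 CPM in Hyperoxia 1 and 55.7 to 96.6 CPM in the other hyperoxic libraries, and did not pass the test (log2 fold change 0.70, adjusted p = 0.0890, and 0.36 with an adjusted p of 0.205 without Hyperoxia 1). Znrd1, the small polymerase I subunit for RNA cleavage, had 0 counts in Hyperoxia 1 and a log2 fold change of 0.01. Crcp, a polymerase III stalk subunit, had a log2 fold change of 0.60 (edgeR adjusted p = 0.244), and it was called higher without Hyperoxia 1, by 0.81 (adjusted p = 0.0217). Polrmt, the separate RNA polymerase of mitochondria, had 4.18 to 12.9 CPM in normoxia and 3.82 to 8.31 CPM in hyperoxia, with a log2 fold change of -0.21 (adjusted p = 0.645).

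Factors that work with the polymerases were called higher in a share close to that of all genes, 11.8%. The share of factors called lower was below that of all genes, 10.8%. Over 7 lists of 96 genes, which include the subunits under other names, 11 of 93 tested (11.8%) were called higher and 1 (1.08%) lower, with a median log2 fold change of 0.05. Among general transcription factors of polymerase II, 6 of 30 were called higher. With all libraries 0 were called lower by edgeR or limma (2 at an unadjusted p of 0.05 in edgeR) and 1, Taf4, by DESeq2. Without Hyperoxia 1, edgeR called 8 (26.7%) higher, beside 15.2% of all genes, and Taf4 lower (log2 fold change -0.62, adjusted p = 0.0333), beside 13.3%. The leading ones were Gtf2f2, the small subunit of TFIIF (log2 fold change 1.31 ± 0.21, edgeR adjusted p = 0.000315), Gtf2h1 of TFIIH (0.85 ± 0.14, adjusted p = 0.000564) and Mnat1, the assembly factor of the TFIIH kinase (0.86 ± 0.17, adjusted p = 0.00219). Gtf2f2 ran from 8.50 to 24.5 CPM in normoxia and from 32.2 to 49.0 CPM in hyperoxia, without overlap. Polymerase II elongation factors had 2 of 20 called higher, Tcea1 (TFIIS, 0.70) and Ssrp1 of the histone chaperone FACT (0.50, and 0.35 with an adjusted p of 0.0547 without Hyperoxia 1). In that list Supt5, part of the elongation factor DSIF, was called lower without Hyperoxia 1 (-0.39, edgeR adjusted p = 0.0362) and, with all libraries, by limma on the deposited log10 CPM. Polymerase I factors had 1 of 6 called higher, Taf1d (0.88 ± 0.13, edgeR adjusted p = 0.000263), a part of the SL1 complex. Counts for Taf1d are uncertain because several small RNA genes lie within it on the same strand, and Gtf2f2 (Gm25517) and Tcea1 (Gm37988) also overlap another gene on their strand. Polymerase III initiation factors had 0 of 15 called higher by edgeR, DESeq2 or limma (3 at an unadjusted p of 0.05 in edgeR) and 1 lower, Snapc3 of the snRNA activator complex (-0.48 ± 0.14, edgeR adjusted p = 0.0189). Assembly factors had 1 of 12 called higher, Uxt, a prefoldin-like protein (0.61, adjusted p = 0.0170), which overlaps Elk1 on the same strand. In this list 3 of 12 were called higher without Hyperoxia 1, and 3 by DESeq2 and by limma-voom with all libraries, in each case Rpap2, Uri1 and Uxt. In the mitochondrial list, 0 of 6 passed in either direction by edgeR, DESeq2 or limma, or at an unadjusted p of 0.05.

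Several of the called subunit genes overlap another gene on the opposite strand in GENCODE M21, namely Polr1a (Gm19078 and Gm26628), Polr1e (Fbxo10) and Polr2c (Dok4). The sources used here do not state whether counting used the strand, so those counts may hold reads of the overlapping gene. Polr2l, Polr3d, Polr3e and Polr3k overlap no annotated gene. Polr3c, called without Hyperoxia 1, overlaps Gm22581 and Gm42783 on the same strand, and its counts are uncertain to that extent. Polr1d and Polr2h, also called without Hyperoxia 1, overlap Rps10-ps4 and Clcn2 on the opposite strand, so the unknown strand setting applies to them too. Over the 22 subunit genes with an entry in the promoter table, the window from 250 bases before to 50 after the start held a GC box in 14, a CCAAT box in 7, an ETS core in 7, an E-box in 4 (Polr2h, Polr3c, Polr3e and Polr3gl) and TATAAA in 2. The shares over all promoters were 35.7%, 37.4%, 8.86%, 7.15% and 13.6%. Polr2d, Polr2g, Polr2k, Polr3a and Polr3d were among those without an entry.

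Hyperoxia 1 held the lowest value of all 13 libraries for 8 subunit genes (Polr1d, Polr2e, Polr2g, Polr2h, Polr2j, Polr2k, Polr2m and Polr3f) and the highest for 9, among them all 7 called genes. Over all genes tested it was lowest in 31.8% and highest in 21.1%. Transcript length moved with this. With genes divided by length into 5 equal bins, in the shortest bin, up to 1106 bases, the median log2 difference of Hyperoxia 1 from the median of the other hyperoxic libraries was -0.62, and it was -0.27, -0.11, -0.06 and 0.08 in the bins that followed. The 8 subunit genes in the shortest bin had a median difference of -1.99, and among them Polr2i and Polr3gl were above 0, with 0.18 and 1.39. In the longer bins, which hold 7, 3, 4 and 5 subunit genes, the medians were 0.31, -0.49, 0.31 and 0.03. Polr2l, in the bin after the shortest, had 1.73. The part of length in the values of Hyperoxia 1 was not tested. When length and GC content were added as corrections, a choice made after seeing the data, 8 subunit genes were called higher and 0 lower, with Polr3c added to the 7, while the shares over all genes were 15.1% higher and 9.48% lower. The 6 called genes other than Polr3k were called in every one of the 13 fits that left out 1 library. They were also called by DESeq2, limma-voom and limma on the deposited log10 CPM. With a replicate block the calls of Polr2c, Polr2l and Polr3e were lost, and losses within the runs of library names are given above.

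**Figure D4:**
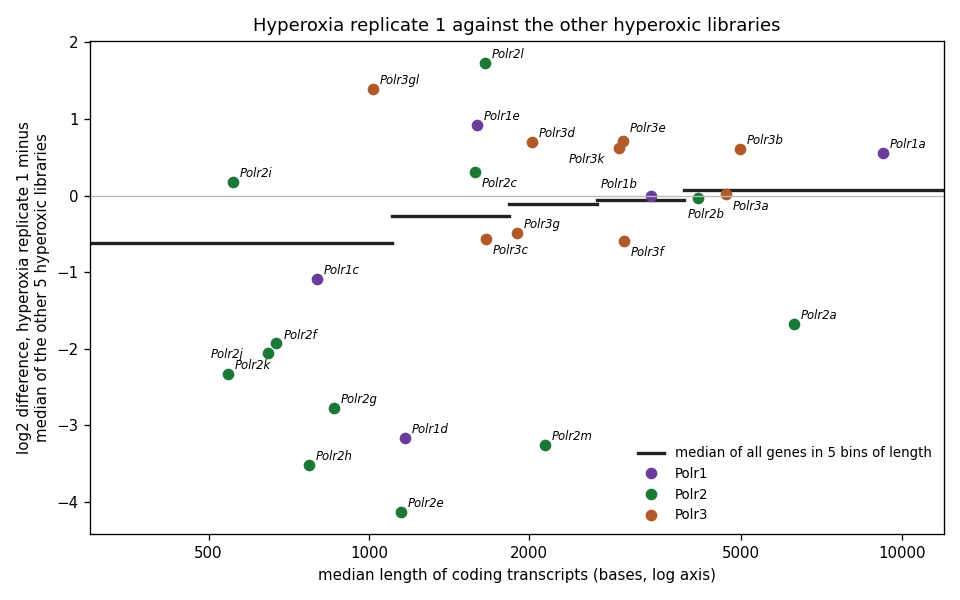
Log2 difference between Hyperoxia 1 and the median of the other 5 hyperoxic libraries (vertical axis, log2 CPM with a prior count of 2) against the median length of each gene's coding transcripts in bases (horizontal axis, logarithmic). Points are 26 of the 27 subunit genes tested, coloured by Polr1, Polr2 and Polr3, and black bars are the medians of all genes in 5 equal bins of length. The bars run from -0.62 in the shortest to 0.08 in the longest bin, and Polr2h lies at its position with 0 counts.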

How the data were processed

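The 13 Quant-seq libraries were grouped by the oxygen level in the labels. Reads were pseudoaligned by the authors with kallisto in BioJupies, and the build named in the submitters' processing notes is mm10. The authors deposited whole-number counts per gene symbol, and a second table of log10 values (CPM plus 1). The annotation and strand setting are not given in the sources used here. The count test was edgeR 4.0.16 (glmQLFit, glmQLFTest, TMM, filterByExpr) in R 4.3.3, with Benjamini-Hochberg adjustment over all genes and a threshold of 0.05. Standard errors of log2 fold changes came from the fold change and its F statistic. Ratios used a prior count of 2. Alternatives were DESeq2 1.42.0, limma 3.58.1 (voom, and the deposited log10 CPM), other filters and scalings, a replicate block and leaving out each library. Scripts were tested on simulated data. Lengths and overlaps came from GENCODE M21 (GRCm38) and promoters from RefSeq (GRCm38.p6).

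The members and gene lists were chosen with earlier results of these data known. A single subunit gene is counted in the totals but is not reported here by itself. The genes named are the other subunits, those under other symbols, Polrmt, and in each factor list up to 3 called genes with the smallest adjusted p. Taf4, Supt5, Rpap2, Uri1 and Ccna2 are named outside that rule, a choice made with their values in view. The labels do not say that libraries came from separate mice, so p-values measure the spread between these libraries, which may be technical. A number of counts per library from 1607111 to 4540288 limits precision for genes near the floor.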

Additional observations from a re-analysis of the deposited data

Results flagged for a closer look

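Of 68 sets of values examined (34 results in 2 groups), 11 held a library whose gap to its nearest neighbour was a large share of the group's range, where about 1 in 20 by chance gives 3. Of these, 6 were in Hyperoxia 1. Its log2 CPM was below the other hyperoxic libraries for Polr1d (gap 0.863 of the range), Polr2e (0.662), Polr2h (0.694), Polr2k (0.680) and Polr2m (0.796), and above them for Polr2l (0.727). Hyperoxia 3 was low for Polr1b (0.630) and for the ratio of Polr1b to Polr2b (0.721). Normoxia 6 was low for Polr2f (0.781) and Polr2i (0.635), and Normoxia 3 was low for Polr3e (0.799).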

How the results depend on the processing

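No result turned its direction past the threshold among the 1871 values recomputed. Same-numbered libraries of the groups did not deviate together (correlations -0.325 to 0.272), so they share only a number. With the replicate block all the same, 718 genes were called higher and 626 lower, and Polr2, Polr3 and factor-list genes called higher were 0, 1 and 5, with 0 factor-list genes lower. The ratios of Polr1a to Polr2a, Polr3a to Polr2a and Polr3g to Polr3gl were 1.84, 1.30 and 0.89 in the block (exact permutation of 6 pairs, adjusted p = 0.109, 0.109 and 0.146), where the smallest unadjusted p is 0.0312. Polr1 genes called higher were 1 with at least 10 counts in every library, a filter that leaves out Polr1e. Polr2 genes called higher were 1 when grouped by enzyme. Within the O to S libraries the Polr2 median was 0.65 (-0.20 within B to M), the Polr3 median 0.25, the median of the factor lists 0.19 and the ratios of Polr1a to Polr2a and Polr1a to Polr3a 0.65 and -0.43, the latter 0.90 within B to M. Factor-list genes called lower were 2 with DESeq2, 2 on the log10 CPM, 2 by library size alone, 2 with the letter set as a term, 0 with no filter and 3 with at least 10 counts in every library. Leaving out each library gave -0.51 to 0.10 for the ratio of Polr1b to Polr2b, -0.32 to 0.27 for Polr3b to Polr2b, 0.72 to 1.17 for Polr3g to Polr3gl, and 1 to 3 factor-list genes called lower. The cause of these shifts was not tested. Depth limits genes near the floor, such as Polr1e, Polr2d, Polr2h and Polr3g.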
